A study of Mus musculus with 24 samples.

Results

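Total spinal cord RNA was compared between 3 tissue pools taken 2 days after a contusion (dpi 2) and 3 pools from naive mice, which make up 6 of the 24 libraries of the study. Every mouse had the genotype plp-cre;rpl22HA and received tamoxifen: a Cre that tamoxifen activates, driven by an OL promoter, switches on an HA tag on the ribosomal protein Rpl22 in oligodendrocytes (OLs). Each pool joined short cord segments of 2 mice, and gave 1 library of OL ribosome-bound RNA and 1 library of total RNA. The total RNA is the polyA RNA of the cleared tissue lysate before the tagged ribosomes were captured, so that every cell type of the segment contributes and the OL tag plays no part in it. Injured mice received a T9 impact of 50 kdyn from the IH impactor, with an age of 10 to 12 weeks and female sex in the labels, and the segment spanned the lesion. Naive mice had no surgery, and their tissue was collected together with that of dpi 42, at an older age than the labels give according to the methods of the study, so anesthesia, laminectomy, drugs, age and time since tamoxifen cannot be told apart from the contusion. The comparison asks which transcripts of the whole cord differ in the acute phase of the injury, and total RNA of dpi 10 and dpi 42, 3 pools each, shows where dpi 2 differs from the later phases.

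A contusion tears vessels and kills neurons and glia at the impact site, and blood enters the tissue. In the first days the blood supplies neutrophils and then monocytes, which turn into macrophages and take up debris, myelin and red cells. Microglia, the resident macrophages, and astrocytes, the glia that buffer glutamate and potassium, become reactive, and several cell types divide. Neurons lose synapses and axons in and next to the lesion, and their cell bodies may switch on an injury program led by Atf3 and other AP-1 factors.

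The 6 libraries held similar numbers of reads, and the naive and the dpi 2 libraries formed separate groups. Counts on genes were 27739039 to 28552424 in the naive libraries and 25840127 to 27753951 in the dpi 2 libraries, so 3 counts stand for 0.0840 to 0.0984 CPM, the unit used below for the level of a gene: its counts relative to the library total, with the total scaled by TMM for RNA composition. The first principal component took 70.4% of the variance and ran from -84.3 to -80.6 in the naive libraries and from 70.1 to 103 in the dpi 2 libraries. Hox genes of the trunk, which mark spinal cord, had a summed level of 953 to 992 CPM in naive tissue and 532 to 685 CPM on dpi 2, with 0 and 0 of 15 tested genes called up and down, while genes of the forebrain were low in both groups (11.4 to 13.5 and 4.34 to 6.52 CPM in sum). Dpi 2 pool 2 carried 2414 and 2604 counts on Y-linked genes in its OL and its total library, against 0 to 13 (median 0) in the 22 others, which goes against the label female. Sums over gene lists below were often highest or lowest in that library, and the calls and lists that change most without it are given with their values. Outside the 6 libraries, the title and the description of a pair of dpi 42 libraries disagree on which is total and which is OL RNA and on the pool, and the description was followed. OL and myelin genes summed to 30666 to 32591 CPM in the 3 dpi 42 libraries taken as total RNA and to 160658 to 202742 CPM in those taken as OL RNA. Pools are the replicates, and p-values rest on the spread between pools, estimated over all 24 libraries, OL libraries included. A p-value thus need not match the spread among the 6 compared libraries alone.

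More genes were called up than down, and the rises among called genes were far larger than the falls. Of 17167 tested genes, 1717 were up on dpi 2 (10.0% of all tested) and 1086 were down (6.33%), at a log2 fold change (Log2FC) past 1 in size and a q under 0.05, q being the Benjamini-Hochberg adjusted p of edgeR's quasi-likelihood test. A value after ± is the standard error of Log2FC, taken as its size divided by the square root of the F statistic. Among the genes called up the median Log2FC was 2.45, 1058 genes were past 2 and 399 past 4. Among those called down the median was -1.28, with 81 genes past 2 in size and 21 past 4. Genes called up held 2.90% to 3.06% of the counts in naive tissue and 12.2% to 15.3% on dpi 2, and genes called down held 18.5% to 19.6% and 7.64% to 9.88%. The median over all tested genes was -0.10, and the split of calls depends on the scaling: 61.3% of calls were up with TMM and 79.5% with library sizes alone, under which the median gene moved up by 0.20. Every dpi 2 library lay above every naive library for 4232 genes (24.7%) and below for 6153 genes (35.8%). Among the genes called up and down, 1680 and 1082 were separated in this way. In 82 of the genes called up no naive library had a count.

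**Figure D1:**
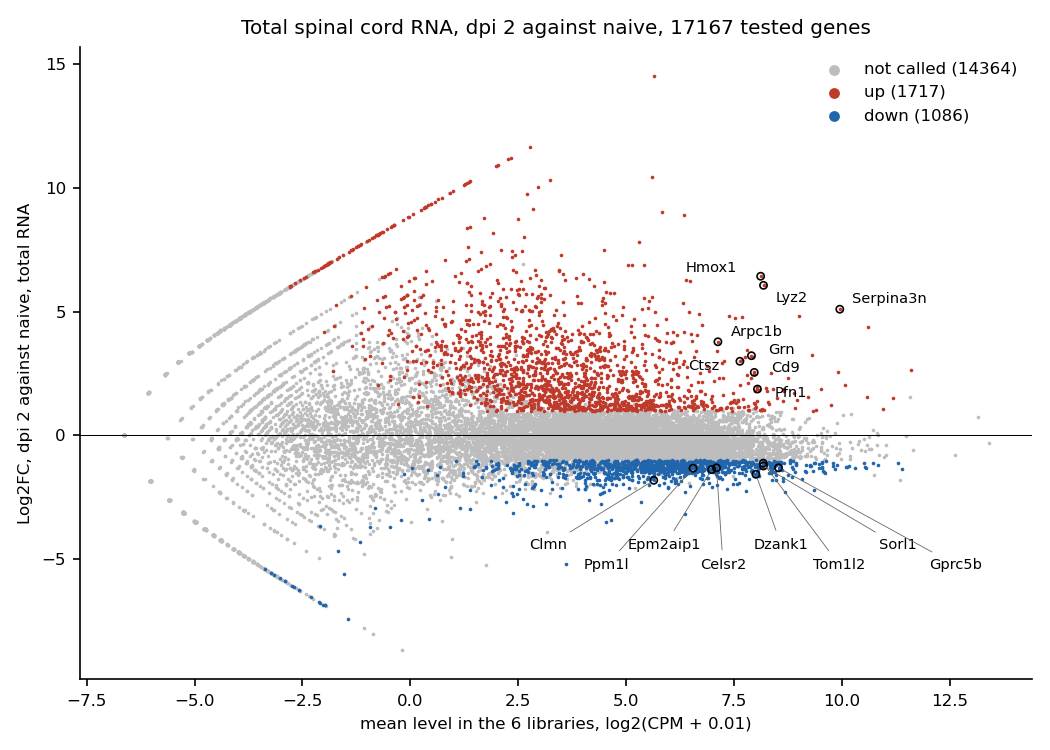
Log2FC of dpi 2 against naive total RNA (vertical axis) against the mean level in the 6 libraries as log2(CPM + 0.01) (horizontal axis), 1 point for each of 17167 tested genes. Genes called up are red and genes called down blue, and the 8 genes with the smallest p in each direction are circled and named. The red cloud reaches far higher than the blue cloud reaches down. The straight streaks at the left are genes with few counts, such as those with 0 in a whole group, whose fitted fold changes depend on a prior count.

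Among the 8 genes that rose with the smallest p were genes known from phagocytes, reactive glia and the actin cytoskeleton. Serpina3n (chr12:104406729-104414329), a secreted serine protease inhibitor of the acute phase and a marker of reactive astrocytes, was at 62.2, 54.5 and 51.9 CPM in the 3 naive libraries and at 1875, 2183 and 1731 CPM on dpi 2 (Log2FC 5.10 ± 0.22, q = 2.45e-12). Lyz2, a lysozyme of myeloid cells (chr10:117277331-117282321), was at 10.8, 7.83 and 7.07 and 615, 683 and 425 CPM (Log2FC 6.07 ± 0.28, q = 3.13e-12). Hmox1, the heme oxygenase that breaks down heme to iron, biliverdin and carbon monoxide (chr8:75093621-75100589), was at 6.07, 5.38 and 7.64 and 595, 631 and 425 CPM (Log2FC 6.43 ± 0.30, q = 3.37e-12). In each of these 3 genes the lowest dpi 2 library was many times the highest naive library, and library 3 was the lowest of its group.

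Ctsz, a cathepsin of the lysosome (chr2:174427493-174439039), was at 49.4, 45.8 and 37.9 CPM in naive tissue and at 319, 385 and 359.9 CPM on dpi 2 (Log2FC 3.00 ± 0.13, q = 2.45e-12). Grn encodes progranulin, a secreted and lysosomal protein of microglia and macrophages (chr11:102430315-102437048), and was at 50.4, 44.9 and 43.9 and 424, 479 and 398 CPM (Log2FC 3.22 ± 0.14, q = 2.45e-12). Cd9, a tetraspanin of the cell surface (chr6:125460266-125494791), was at 84.8, 70.5 and 64.8 and 394, 498 and 395 CPM (Log2FC 2.55 ± 0.12, q = 2.80e-12). The groups did not overlap in any of these genes, which were chosen among genes with that separation. Arpc1b, a subunit of the Arp2/3 complex that branches actin filaments (chr5:145114215-145130705), was at 17.4, 20.4 and 19.05 and 233, 306 and 245 CPM (Log2FC 3.79 ± 0.17, q = 2.45e-12). Pfn1, which encodes the actin-binding protein profilin (chr11:70651850-70654644), was at 115, 117 and 108 and 387, 462 and 398 CPM (Log2FC 1.88 ± 0.089, q = 3.84e-12). Ctsz, Grn, Arpc1b and Cd9 share exon bases with a gene on the other strand (Nelfcd, Fam171a2, Pdap1 and Gm26728), and the strand setting of the counting was not given in the sources used here.

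The 8 genes that fell with the smallest p changed less. Gprc5b, an orphan G protein-coupled receptor (chr7:118972047-118995211), was at 558, 547 and 481 CPM in naive tissue and at 215, 184 and 243 CPM on dpi 2 (Log2FC -1.30 ± 0.095, q = 2.14e-09). Clmn, calmin, an actin-binding membrane protein (chr12:104763117-104865076), fell most of the 8, with 87.02, 78.5 and 67.7 and 23.9, 22.3 and 20.3 CPM (Log2FC -1.81 ± 0.14, q = 3.41e-09). Sorl1, a sorting receptor that steers the amyloid precursor protein (chr9:41964720-42124297), was at 415, 397 and 414 and 188, 147 and 187 CPM (Log2FC -1.23 ± 0.10, q = 1.22e-08). All naive libraries lay above all dpi 2 libraries in each, as the choice of these genes required. Celsr2, an atypical cadherin of planar cell polarity (chr3:108390851-108415552), was at 189, 182 and 213 and 87.4, 63.8 and 85.2 CPM (Log2FC -1.31 ± 0.11, q = 1.30e-08). Ppm1l, a membrane-bound protein phosphatase (chr3:69316861-69560802), was at 127, 131 and 145 and 60.2, 44.03 and 56.8 CPM (Log2FC -1.32 ± 0.10, q = 5.09e-09). Tom1l2, which takes part in endosomal trafficking (chr11:60226714-60352905), had Log2FC -1.12 ± 0.083, Dzank1 (chr2:144470557-144527414) had Log2FC -1.57 ± 0.13, and Epm2aip1 (chr9:111271929-111279093) had Log2FC -1.38 ± 0.11. Library 2 was the lowest dpi 2 library in Gprc5b, Sorl1, Celsr2 and Ppm1l and library 3 in Clmn. Gprc5b, Tom1l2 and Sorl1 share exon bases with genes of the opposite strand (Iqck, Gm12265 and Gm16214).

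On the linear CPM scale the order was another. The called genes with the largest gain in mean CPM were Apod, Spp1, Actb, Serpina3n, Ctsb and Eef1a1. Apod, a lipocalin that binds lipids and is made by OLs and perivascular cells, was at 859.5, 749.7 and 958 CPM in naive tissue and at 4305, 6502 and 5216 CPM on dpi 2 (Log2FC 2.64 ± 0.16, q = 2.05e-10). Spp1, osteopontin, a secreted phosphoprotein of activated phagocytes, was at 149.5, 156 and 121 and 2886, 3446 and 2558 CPM (Log2FC 4.38 ± 0.21, q = 5.02e-12), and shares exon bases with Gm42793 on its own strand. For these genes every dpi 2 library was above every naive library, which their choice required as well. Actb, cytoplasmic beta-actin, rose from 1208 to 3495 CPM (Log2FC 1.53 ± 0.084), Ctsb, cathepsin B, from 776 to 2284 CPM (Log2FC 1.56 ± 0.12), and Eef1a1, the elongation factor that brings tRNA to the ribosome, from 1294 to 2687 CPM (Log2FC 1.05 ± 0.089), as means of the 3 libraries. Neuronal genes were among the largest losses. Snap25, the SNARE protein of the synaptic terminal, was at 3425, 3533 and 3369.9 and 1648, 1287 and 1841 CPM (Log2FC -1.11 ± 0.23, q = 6.62e-04). The neurofilament genes Nefl and Nefm fell from 2556 to 1125 CPM (Log2FC -1.18 ± 0.23) and from 2342 to 1071 CPM (Log2FC -1.13 ± 0.27), Kif5a, a kinesin of axonal transport, from 2165 to 879.9 CPM (Log2FC -1.30 ± 0.17), and Atp1b1, a beta subunit of the sodium pump, from 2103 to 871 CPM (Log2FC -1.27 ± 0.15). Nefl and Nefm overlap on opposite strands.

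Genes of a list of monocyte and macrophage markers, which also holds genes of perivascular macrophages, rose together. Of 22 tested genes in this list 21 were up and none was down, with a median Log2FC of 5.20 beside -0.10 for all tested genes, and their summed level was 60.2 to 75.3 CPM in naive tissue and 804 to 1009 CPM on dpi 2. Ccr2, the receptor by which monocytes leave the marrow and enter inflamed tissue, was at 0.0984, 0.129 and 0.254 CPM in naive tissue and at 10.9, 12.6 and 6.02 CPM on dpi 2 (Log2FC 5.90 ± 1.20, q = 6.41e-04). Arg1, arginase, an enzyme of macrophages in wounds, was at 0.131, 0.193 and 0.317 and 106, 146 and 90.96 CPM (Log2FC 9.03 ± 0.83, q = 1.09e-07). Chil3, a chitinase-like protein of macrophages, was at 0.0984, 0.322 and 0 and 21.9, 32.3 and 12.6 CPM (Log2FC 7.27 ± 1.37, q = 4.28e-04). In all 3 genes the naive libraries were near the level of a few counts and the dpi 2 libraries far above it. The monocyte marker Ly6c2 had 0, 2 and 1 counts in naive tissue and 1.88, 1.14 and 1.06 CPM on dpi 2. F10, coagulation factor X, had no count in naive tissue and was at 5.82, 4.67 and 3.72 CPM, at least 48.96-fold higher than the floor of 3 counts per library. Such bounds, here and below, divide the mean of the dpi 2 libraries by the mean floor of the naive libraries. Fn1, fibronectin, rose from 13.3 to 355 CPM (Log2FC 4.73 ± 0.44), and the scavenger receptors Mrc1 and Cd163 of perivascular macrophages rose from 0.844 to 11.3 CPM (Log2FC 3.74 ± 0.60) and from 0.775 to 6.46 CPM (Log2FC 3.05 ± 0.69). Vcan, which OL progenitors also express, had Log2FC 1.05 (q = 0.0717). Fn1, Arg1 and Thbs1 had the highest means of the list on dpi 2 (355, 114 and 85.9 CPM). Thbs1 is also counted with the matrix and adhesion genes below. Ccr2 and Ly6c2, at means of 9.83 and 1.36 CPM, held little of the sum. Without dpi 2 library 2, 18 of the 22 genes were up.

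Phagocyte and lysosome genes, which microglia and macrophages share, were up in 21 of 25 cases (median Log2FC 3.00), and their sum went from 3413 to 3569.8 to 11226 to 13551 CPM. Cd68, a lysosomal glycoprotein, was at 8.03, 6.09 and 6.12 CPM in naive tissue and at 191, 205 and 205 CPM on dpi 2 (Log2FC 4.89 ± 0.32, q = 6.43e-10). Lgals3, galectin-3, which recognizes damaged membranes, was at 4.26, 1.64 and 0.570 and 188, 192 and 119 CPM (Log2FC 6.27 ± 0.52, q = 1.22e-08). Gpnmb, a membrane glycoprotein of lipid-laden phagocytes, was at 3.74, 2.13 and 1.01 and 224, 163 and 139 CPM (Log2FC 6.26 ± 0.52, q = 1.30e-08). None of these had an overlap between the groups. Msr1, a scavenger receptor for modified lipoproteins, had no count in any naive library and 87.3, 113 and 98.8 CPM on dpi 2, at least 1032-fold higher. Trem2 and its signalling partner Tyrobp rose from 12.2 to 75.8 CPM (Log2FC 2.64 ± 0.24) and from 12.1 to 104 CPM (Log2FC 3.11 ± 0.21), and Cd36, which takes up fatty acids, rose from 0.202 to 16.2 CPM (Log2FC 6.29 ± 0.70). Apoe, the main lipid carrier of the nervous system, was at 1829, 1804 and 1827 CPM in naive tissue and at 1709, 1955 and 1927 CPM on dpi 2, and was not called (Log2FC 0.034, q = 0.974).

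Markers of homeostatic microglia split. Of 19 tested genes 7 were up and none down (median 0.62), and the sum was 3122 to 3330.1 CPM in naive tissue and 3990.2 to 4621 CPM on dpi 2. Sparc (1567 and 1808 CPM) and Cst3 (813 and 678 CPM) held most of the naive sum, and neither was called. Tmem119, P2ry12 and Sall1 are markers that separate microglia from blood-derived macrophages. P2ry12, a purine receptor that guides microglial processes, was at 35.5, 27.7 and 25.96 and 24.3, 24.2 and 29.8 CPM (Log2FC -0.19, q = 0.482). Sall1, a transcription factor, was at 63.97, 57.7 and 50.2 and 56.9, 52.3 and 62.5 CPM (q = 1.00), and Tmem119, a membrane protein, at 22.8, 22.4 and 20.03 and 60.3, 62.9 and 56.5 CPM (Log2FC 1.46 ± 0.30, q = 5.77e-04). Of the 3, Tmem119 rose and the other 2 were not called. Members that rose included Cx3cr1, the fractalkine receptor (from 54.5 to 172 CPM, Log2FC 1.66 ± 0.18), Csf1r, the receptor on which microglia depend (from 96.99 to 249 CPM, Log2FC 1.36 ± 0.23), Olfml3 (Log2FC 3.43 ± 0.39), Fcrls (Log2FC 3.80 ± 0.26), and Ltc4s (Log2FC 2.51 ± 0.52). Siglech, a lectin of microglia, was not called (Log2FC -1.08, q = 0.142).

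Neutrophil genes were present at low level. 8 of 22 tested genes were up and none down, with a median Log2FC of 3.58, or 3.23 with genes at 0 in naive tissue set to their bounds. Without dpi 2 library 2 the median was 2.58 and 7 were up. The sum was 24.7 to 33.2 CPM in naive tissue and 71.8 to 106 CPM on dpi 2, with library 2 the highest. S100a8 and S100a9 form calprotectin, the main cytosolic protein of neutrophils. S100a8 was at 0.361, 1.03 and 0.222 CPM in naive tissue and at 7.70, 10.8 and 6.56 CPM on dpi 2 (Log2FC 3.94 ± 1.26, q = 0.0172), and S100a9 at 1.18, 2.29 and 0.602 and 11.2, 15.3 and 5.74 CPM (Log2FC 2.98 ± 0.71, q = 0.00247). Clec4d, a C-type lectin that monocytes carry too, had no count in naive tissue and was at 16.4, 15.3 and 9.13 CPM, at least 141-fold higher. The defining marker Ly6g had 6, 0 and 0 counts on dpi 2 and none in naive tissue, and Retnlg, a resistin-like protein of mature neutrophils, was at 0, 0.0645 and 0.317 and 0.868, 1.62 and 0.514 CPM (q = 0.181). In a fit of the 12 total RNA libraries alone 16 of the genes were up.

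Other blood cells differed in their share. Hemoglobin genes rose: of 5 erythroid genes 4 were up (median 3.53), the sum being 1.49 to 10.7 CPM in naive tissue and 62.9 to 126 CPM on dpi 2. Hbb-bs, an adult beta globin, was at 4.92, 5.74 and 1.14 and 31.7, 64.9 and 43.3 CPM (Log2FC 3.57 ± 0.86, q = 0.00220). Hba-a1, Hba-a2 and Hbb-bt had Log2FC of 4.33, 3.48 and 3.42; the globin copies are nearly identical, and reads may be split between them. Alas2, the erythroid enzyme of heme synthesis, had Log2FC 3.53 (q = 0.0849) and was not called. Lymphocyte genes stayed at 1.11 to 1.61 CPM in sum in naive tissue and 2.46 to 2.84 CPM on dpi 2, with 0 and 0 of 13 called up and down. The T cell receptor subunit Cd3e had 0, 0 and 1 counts in naive tissue and 2, 9 and 4 on dpi 2. Of the 5 mast cell genes none was called: Cma1 had 0, 0 and 0 counts on dpi 2, Cpa3 0, 0 and 0, Mcpt4 5, 0 and 0 and Tpsb2 7, 11 and 19, while Kit, which neurons express too, was at 24.9 CPM in naive tissue and 15.8 CPM on dpi 2 (Log2FC -0.66, q = 0.0154).

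**Figure D2:**
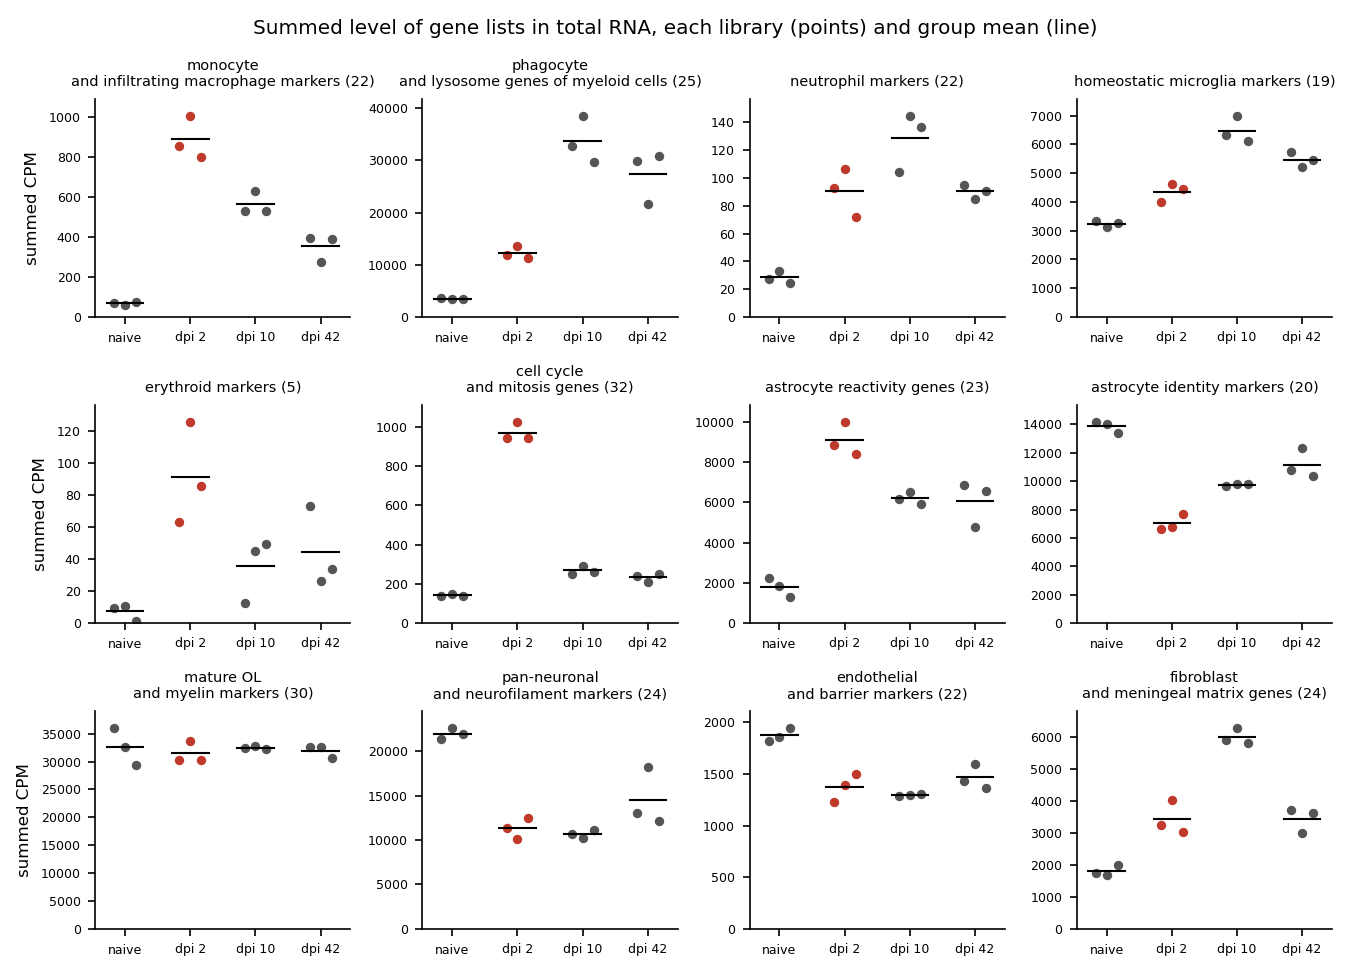
Summed CPM of 12 gene lists (vertical axis, from 0) in each total RNA library (points) of naive, dpi 2 (red), dpi 10 and dpi 42 tissue, with the group mean as a line and the number of tested genes in brackets. Monocyte, cell cycle and astrocyte reactivity genes were highest on dpi 2. Phagocyte and matrix genes were higher on dpi 10 than on dpi 2, and the sums of OL and myelin genes, Apod included, overlapped between the groups.

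Chemokines, the proteins that attract leukocytes, were among the steepest rises. Of 28 tested ligands 16 were up and 1 was down (median Log2FC 4.46, or 3.38 at the bounds). Ccl2, which draws Ccr2-bearing monocytes, was at 0, 0.193 and 0.412 CPM in naive tissue and at 24.1, 25.6 and 14.7 CPM on dpi 2 (Log2FC 6.70 ± 0.86, q = 3.21e-06). Ccl3 and Ccl4, which attract myeloid cells, were at 14.2, 13.4 and 7.32 and at 8.12, 5.98 and 5.77 CPM on dpi 2, from means of 0.150 and 0.0537 CPM. Ccl6, a chemokine of myeloid cells, rose from 1.79 to 83.9 CPM (Log2FC 5.55 ± 0.62) and Ccl9 from 1.98 to 58.1 CPM (Log2FC 4.87 ± 0.59). The neutrophil attractants were low: Cxcl2 had no count in naive tissue and 1.04, 1.56 and 0.877 CPM on dpi 2, at least 11.95-fold higher, and Cxcl1 was at 1.68, 2.96 and 0.816 CPM (q = 0.109). Pf4 and Ppbp, stored in platelet granules, were at 18.4, 23.1 and 9.70 and 0.700, 1.23 and 1.09 CPM on dpi 2, and in naive tissue at 0.230, 0 and 0.570 CPM and at 0. Cx3cl1, fractalkine, a neuronal ligand of the microglial receptor Cx3cr1, fell from 265, 277 and 279 to 127, 89.7 and 128 CPM (Log2FC -1.25 ± 0.39, q = 0.0145), and lost its call without dpi 2 library 2 (q = 0.0725). Among 20 receptors 6 were up and none down (median 2.43, or 1.59 at the bounds): Ccr1 rose from 0.319 to 15.1 CPM (Log2FC 5.54 ± 0.83) and Cxcr4, the receptor of Cxcl12, from 2.25 to 12.2 CPM (Log2FC 2.44 ± 0.43). Cxcl12 itself was at 39.5 and 54.8 CPM and was not called (Log2FC 0.47).

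Of the IL-1 and TNF families, 16 of 29 tested genes were up and none down (median 1.94). Among the ligands, Il1b had no count in naive tissue and 1.26, 1.53 and 0.695 CPM on dpi 2, at least 11.995-fold higher, Tnf had 0, 1 and 0 counts in naive tissue and 1.85, 1.53 and 0.726 CPM on dpi 2, and Il1a was at 0.492, 0.387 and 0.475 and 1.74, 1.08 and 1.18 CPM (q = 0.170) and was not called. Il33, an alarmin kept in glial nuclei, had Log2FC 0.68 (q = 0.00283), under the limit of 1. Il1rn, the antagonist of the IL-1 receptor, had 0, 1 and 0 counts in naive tissue and was at 5.18, 5.38 and 4.99 CPM on dpi 2. Among the receptors, Il1r1 rose from 3.27 to 23.2 CPM (Log2FC 2.83 ± 0.55), and the TNF receptors Tnfrsf1a and Tnfrsf1b rose from 18.7 to 140.1 CPM (Log2FC 2.91 ± 0.53) and from 6.49 to 32.1 CPM (Log2FC 2.31 ± 0.32). The decoy Il1r2 was at 0.492, 0.129 and 0.254 and 2.55, 3.32 and 4.02 CPM and was not called (q = 0.0573). Nlrp3, the sensor of an inflammasome that matures IL-1, rose from 0.752 to 3.79 CPM (Log2FC 2.33 ± 0.70). Nfkbia, the inhibitor that NF-kB induces, rose from 21.1 to 44.8 CPM (Log2FC 1.09 ± 0.34). Without dpi 2 library 2, 11 of these genes were up.

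In the gp130 family, whose receptors signal through STAT3, 11 of 22 genes were up and none down (median 1.37). The ligands Il11, Lif, Osm and Clcf1 rose, and Il6 was hardly detected. Clcf1 was at 0.951, 1.16 and 0.697 CPM in naive tissue and at 18.2, 24.2 and 12.1 CPM on dpi 2 (Log2FC 4.27 ± 0.47, q = 5.46e-07), Il11 at 0.295, 0.903 and 0.666 and 5.35, 11.5 and 3.02 CPM (Log2FC 3.41 ± 0.72, q = 7.18e-04), and Il6 at 0.131, 0 and 0.190 and 0.0840, 0.359 and 0 CPM (q = 0.907). Lif, leukemia inhibitory factor, rose from 0.637 to 5.29 CPM (Log2FC 3.04 ± 1.16), and Osm, oncostatin M, from 0.130 to 2.55 CPM (Log2FC 4.25 ± 1.10). Of the receptors, Osmr rose from 3.77 to 40.8 CPM (Log2FC 3.44 ± 0.59), while the shared subunit Il6st had Log2FC 0.27 (q = 0.131) and Lifr -0.57 (q = 0.00410), both under the limit. Socs3, the feedback inhibitor that STAT3 induces, was at 0.820, 1.87 and 2.57 and 44.7, 67.7 and 37.4 CPM (Log2FC 4.83 ± 0.48, q = 1.34e-07), with no overlap between the groups, and Stat3 itself had Log2FC 0.85 (q = 1.71e-06). Bcl3, a cofactor of NF-kB, rose most of the list for which a fold can be given (from 0.706 to 28.8 CPM, Log2FC 5.34 ± 0.40).

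Colony stimulating and growth factors rose in 15 of 31 cases and fell in 1 (median 1.36). Gdf15, a stress-induced member of the TGF-beta family, had no count in naive tissue and was at 5.65, 7.21 and 2.60 CPM on dpi 2, at least 53.3-fold higher. Csf1, the growth factor of macrophages and microglia, rose from 52.2 to 120.5 CPM (Log2FC 1.21 ± 0.14), and Csf2rb, the shared beta chain of the GM-CSF and IL-3 receptors, from 0.946 to 20.1 CPM (Log2FC 4.40 ± 0.83). Tgfb1, which restrains inflammation and drives scarring, was at 6.89, 7.42 and 9.19 CPM in naive tissue and at 59.4, 60.5 and 65.99 CPM on dpi 2 (Log2FC 2.98 ± 0.25, q = 1.22e-08). Hbegf, a ligand of the EGF receptor, rose from 18.02 to 83.7 CPM (Log2FC 2.22 ± 0.35), Fgf2 from 20.6 to 70.7 CPM (Log2FC 1.78 ± 0.52) and Igf1 from 5.85 to 24.1 CPM (Log2FC 2.04 ± 0.30). Vegfa, the main driver of new vessels, fell, from 54.9, 58.3 and 67.4 to 23.1, 24.7 and 27.4 CPM (Log2FC -1.26 ± 0.38, q = 0.0122). Bdnf was at 9.90 and 10.1 CPM (q = 0.988).

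Complement genes rose at the start of the cascade and at its receptors. Of 25 genes in the list 16 were up and 1 was down (median 3.06). The 3 chains of C1q, which microglia and macrophages make, moved alike: C1qa was at 60.8, 42.1 and 44.3 CPM in naive tissue and at 387, 542 and 405 CPM on dpi 2 (Log2FC 3.18 ± 0.23, q = 1.99e-09), and C1qb and C1qc had Log2FC of 3.03 and 3.17. C4b rose from 47.2 to 162 CPM (Log2FC 1.78 ± 0.23). C3, the central component, was at 80.4, 74.3 and 44.1 and 57.8, 49.1 and 59.8 CPM and was not called (Log2FC -0.25, q = 0.805), and its groups overlapped. The receptors of the cleavage products, C3ar1 and C5ar1, rose from 2.11 to 90.2 CPM (Log2FC 5.42 ± 0.46) and from 0.824 to 45.8 CPM (Log2FC 5.79 ± 0.56). Vsig4, a complement receptor of tissue macrophages, had no count in naive tissue and was at 1.46, 1.68 and 0.605 CPM, at least 12.9-fold higher. The member that fell was Nptx1, a neuronal pentraxin of synapses, from 269 to 127 CPM (Log2FC -1.08 ± 0.25). It fell short of the limit of 1 without dpi 2 library 2 (Log2FC -0.97).

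MHC genes, which present antigen, were up in 17 of 22 cases (median 2.27) and their sum went from 322 to 359 to 986 to 1194 CPM. Of class I, H2-K1 rose from 29.9 to 116 CPM (Log2FC 1.95 ± 0.24), H2-D1 from 73.99 to 229.9 CPM (Log2FC 1.64 ± 0.15) and its light chain B2m from 113 to 392 CPM (Log2FC 1.79 ± 0.22). Of class II, Cd74, the invariant chain, was at 1.74, 1.87 and 4.88 CPM in naive tissue and at 59.2, 45.3 and 33.1 CPM on dpi 2 (Log2FC 4.01 ± 0.40, q = 1.32e-07), and H2-Ab1 rose from 1.13 to 19.7 CPM (Log2FC 4.12 ± 0.55). H2 genes are near-identical copies, and their reads may be split. Interferon-stimulated genes were up in 17 of 24 cases (median 2.27, or 2.24 at the bounds). Irf7, the factor that amplifies type I interferon, was at 1.90, 1.58 and 1.68 and 21.7, 11.1 and 8.28 CPM (Log2FC 2.99 ± 0.33, q = 4.17e-07). Bst2, tetherin, rose from 2.60 to 34.7 CPM (Log2FC 3.74 ± 0.34) and Ifitm3 from 9.08 to 100.0 CPM (Log2FC 3.46 ± 0.46), whereas Ifit1, Ifit2 and Ifit3 had Log2FC of 1.61, 0.54 and 0.83 and were not called. Stat2, a factor of interferon signalling, was not called (Log2FC 0.20).

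Astrocyte genes went both ways. Of 23 reactivity genes 22 were up (median 3.78) and all 23 lay above naive tissue in every dpi 2 library. Of 20 identity genes none was up and 4 were down (median -1.11), with 17 below naive tissue in every library. Among all tested genes 24.7% lay above and 35.8% below in this way. The sums were 1266 to 2245 CPM in naive tissue and 8414 to 10021 CPM on dpi 2 for reactivity, and 13390.3 to 14198 and 6631 to 7708 CPM for identity. Gfap, the intermediate filament of astrocytes, was at 2019, 1629.7 and 1067 CPM in naive tissue and at 4622, 4763 and 4297 CPM on dpi 2. Its groups did not overlap, but it was not called (Log2FC 1.54, q = 0.0850). All 23 reactivity genes, Gfap included, were up in the fits of the 12 total RNA libraries and of the 6 compared libraries. Vim, vimentin, was at 40.8, 30.4 and 33.8 and 923, 1121 and 962 CPM (Log2FC 4.84 ± 0.52, q = 3.42e-07). Lcn2, lipocalin-2, which binds siderophores, was at 0.590, 1.06 and 6.34 and 57.1, 84.4 and 68.6 CPM (Log2FC 4.71 ± 0.85, q = 1.41e-04). Timp1, an inhibitor of matrix metalloproteinases, was at 0.426, 0.258 and 0.317 and 152, 198 and 133 CPM (Log2FC 8.90 ± 0.74, q = 1.47e-08). Tgm1, a transglutaminase, had at most a few counts in naive tissue (6, 0 and 0) and was at 76.5, 102 and 111 CPM on dpi 2. Several of these genes are made by other cells too, Vim and Cd44 among them, and no source cell can be read from total RNA.

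Of the identity genes, Slc6a11, a GABA transporter of astrocytes, fell from 601, 671 and 778 to 124, 108 and 191 CPM (Log2FC -2.28 ± 0.80, q = 0.0290). Ntsr2 fell from 219 to 55.1 CPM (Log2FC -1.99 ± 0.77), Slc1a3, a glutamate transporter, from 156 to 72.1 CPM (Log2FC -1.12 ± 0.39), and Aldoc, an aldolase, from 2003 to 928 CPM (Log2FC -1.11 ± 0.40). Slc1a2, the main glutamate transporter, was at 2710.4, 2562 and 2533 CPM in naive tissue and at 773, 772 and 1035 CPM on dpi 2, with no overlap, and was not called (Log2FC -1.60, q = 0.0959). Aqp4, the water channel of astrocytic endfeet, was at 656 and 539 CPM (Log2FC -0.28, q = 0.807). Without dpi 2 library 2, or with library sizes alone, none of the identity genes was called. In the fit of the 12 total RNA libraries 6 were down, and in a fit of the 6 compared libraries 9 were.

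Cell division genes rose almost without exception. Of 32 tested genes 31 were up (median 3.94), and the sum was 138 to 147 CPM in naive tissue and 941 to 1027 CPM on dpi 2. Mki67, the antigen of dividing cells, was at 0.787, 0.516 and 0.444 CPM in naive tissue and at 62.1, 69.3 and 76.9 CPM on dpi 2 (Log2FC 6.89 ± 0.46, q = 8.10e-10). Top2a, the topoisomerase of replication and mitosis, was at 0.787, 0.967 and 1.11 and 50.7, 55.7 and 47.6 CPM (Log2FC 5.74 ± 0.61, q = 2.87e-07). Cdk1, the mitotic kinase, was at 0.689, 0.838 and 0.792 and 22.6, 21.6 and 24.7 CPM (Log2FC 4.88 ± 0.87, q = 1.25e-04). The levels of the 3 dpi 2 libraries were close to each other and far from naive tissue. Rises were smaller in genes of the replication machinery that are not restricted to mitosis: Mcm2 had Log2FC 2.15 ± 0.21, Mcm6 Log2FC 2.81 ± 0.25 and Pcna Log2FC 1.12 ± 0.11. Ccnd1, the cyclin of the G1 phase, rose from 49.8 to 252 CPM (Log2FC 2.34 ± 0.21), and Ccne1 was at 18.5 and 15.4 CPM and was not called (Log2FC -0.26, q = 0.614). Which cells divided is not shown by these libraries.

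Vascular genes were mixed. Of 22 endothelial and barrier genes 7 were up and 1 was down (median 0.44). Cldn5, the tight junction claudin of brain and cord vessels, was at 18.03, 21.2 and 17.5 CPM in naive tissue and at 45.5, 66.2 and 73.5 CPM on dpi 2 (Log2FC 1.70 ± 0.46, q = 0.00572), and Cdh5, VE-cadherin, rose from 9.98 to 46.2 CPM (Log2FC 2.21 ± 0.35). Pecam1 rose from 14.1 to 50.8 CPM (Log2FC 1.85 ± 0.63). The vessel growth receptors Flt1 and Kdr were not called (Log2FC -0.26 and 0.27), nor were the barrier transporters Slco1a4, Mfsd2a and Slc2a1 (0.16, -0.36 and 0.29). Spock2, a proteoglycan that neurons and astrocytes also express, was the member that fell (from 1326 to 578 CPM, Log2FC -1.20 ± 0.27). Without dpi 2 library 2, 4 endothelial genes were up. Activation genes of the endothelium were up in 11 and down in 1 of 20 cases (median 2.35). Selp, P-selectin, on which leukocytes roll, had 0, 0 and 1 counts in naive tissue and was at 3.25, 8.35 and 8.07 CPM on dpi 2. Icam1, to which they adhere, was at 1.61, 1.45 and 3.30 and 16.9, 16.9 and 14.8 CPM (Log2FC 2.93 ± 0.57, q = 3.36e-04), while Vcam1 was at 23.1 and 26.5 CPM (q = 0.894). Esm1, a marker of sprouting tip cells, rose from 0.259 to 13.9 CPM (Log2FC 5.73 ± 1.23), and Apln, the ligand apelin, fell from 99.1 to 46.9 CPM (Log2FC -1.08 ± 0.22).

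Pericyte and smooth muscle genes rose in 6 of 14 cases (median 1.06), and in 4 without dpi 2 library 2. Tagln and Acta2, of the contractile apparatus, rose from 3.84 to 156 CPM (Log2FC 5.34 ± 0.69) and from 2.30 to 23.6 CPM (Log2FC 3.36 ± 0.53), and Pdgfrb, the receptor that marks pericytes, from 11.3 to 28.3 CPM (Log2FC 1.32 ± 0.48). Rgs5, Kcnj8 and Abcc9, of quiescent pericytes, were not called (Log2FC 0.58, 0.42 and 0.074). Fibroblast and meningeal matrix genes were up in 19 of 24 cases (median 3.29), and their sum went from 1684 to 1996 to 3032 to 4028 CPM. Sparc, which was not called (1567 CPM in naive tissue and 1808 CPM on dpi 2), held most of the naive sum. Col1a1, the chain of fibrillar collagen I, was at 6.56, 8.03 and 11.03 CPM in naive tissue and at 170.1, 198 and 93.5 CPM on dpi 2 (Log2FC 4.17 ± 0.37, q = 3.36e-08). Col1a2, Col3a1 and Col5a1 had Log2FC of 2.18, 4.71 and 4.22. Lox, which cross-links collagen, rose from 0.341 to 31.9 CPM (Log2FC 6.52 ± 0.88). Slc47a1, a transporter, went from no count to 13.8, 13.3 and 1.69 CPM. Its mean was at least 99.4-fold higher, a bound that library 3 alone does not reach.

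Proteases that cut matrix and their inhibitors were up in 15 of 30 cases (median 1.70, or 1.43 at the bounds). Adam8, a metalloproteinase of leukocytes, was at 1.02, 0.580 and 0.570 CPM in naive tissue and at 90.03, 95.3 and 69.1 CPM on dpi 2 (Log2FC 6.87 ± 0.42, q = 2.05e-10). Plaur, the receptor of urokinase, rose from 0.356 to 18.5 CPM (Log2FC 5.69 ± 0.56). Mmp13 had no count in naive tissue and was at 12.1, 1.53 and 1.33 CPM, at least 51.5-fold higher, or 14.8-fold without dpi 2 library 1, which holds most of its counts, and Mmp3, Mmp8 and Mmp12 were at 0.863, 2.31 and 2.17 CPM on dpi 2. Mmp9, often named in barrier breakdown, was at 15.5, 18.2 and 15.3 and 10.9, 9.15 and 8.71 CPM and was not called (Log2FC -0.77, q = 0.480). Among proteoglycans, tenascins and adhesion molecules 7 of 28 were up and 3 down (median 0.58). Members that rose included Tnc, tenascin-C (from 4.44 to 38.2 CPM, Log2FC 3.10 ± 0.71), Cd44, the hyaluronan receptor (from 13.6 to 139.6 CPM, Log2FC 3.36 ± 0.35), Thbs1 (from 5.35 to 85.9 CPM, Log2FC 4.00 ± 0.39) and Cspg4, NG2 (from 23.5 to 55.3 CPM, Log2FC 1.23 ± 0.30). Those that fell are parts of perineuronal nets: Bcan, brevican (from 312 to 83.2 CPM, Log2FC -1.91 ± 0.62), and the link proteins Hapln1 (from 27.1 to 6.62 CPM, Log2FC -2.04 ± 0.36) and Hapln4 (from 283 to 84.2 CPM, Log2FC -1.75 ± 0.27). Ncan and Acan were not called (Log2FC 0.59 and -0.97).

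Of 25 tested genes of iron and heme handling 11 were up and none down (median 0.95). Ftl1, the light chain of ferritin, was at 125, 124 and 107 CPM in naive tissue and at 1156, 1315 and 964 CPM on dpi 2 (Log2FC 3.27 ± 0.16, q = 4.99e-12). The heavy chain Fth1, the gene with the most counts in each dpi 2 library (1.31% to 1.69% of the total), was at 7626, 6548 and 6339 and 10155, 13194 and 11428 CPM (Log2FC 0.76, q = 0.00161), separated but under the limit of 1. Slc11a1, an iron exporter of phagosomes, rose from 2.53 to 33.2 CPM (Log2FC 3.71 ± 0.36), and Steap3, a ferrireductase of endosomes, from 7.64 to 40.3 CPM (Log2FC 2.40 ± 0.45). Tfrc, the transferrin receptor, was at 119, 123 and 184 and 77.7, 68.8 and 77.1 CPM (Log2FC -0.93, q = 3.81e-05), below naive tissue in every library and short of the limit. The exporter Slc40a1, ferroportin, was at 5.20 and 10.1 CPM (Log2FC 0.95, q = 0.0119), and was called without dpi 2 library 2 (Log2FC 1.07, q = 0.0140). Trf, transferrin, which OLs make, rose from 181 to 633 CPM (Log2FC 1.81 ± 0.12).

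Metallothioneins, small proteins that bind zinc and copper, are switched on by metals through metal response elements (MRE) and by glucocorticoids and cytokines, and Serpina3n is an acute phase gene of cytokine signalling. Their promoters are shown as examples of rising genes, and those of other rising genes, Socs3 and Nfkbia among them, are not shown. The windows are the 250 bases before the RefSeq start of each gene, 5′ to 3′ on the strand of the gene, in GRCm38.p6: Serpina3n chr12:104406458-104406707 (+), Mt1 chr8:94178839-94179088 (+) and Mt2 chr8:94172368-94172617 (+). Capitals mark matches on either strand to AP-1 (TGANTCA), STAT (TTCNNNGAA), MRE (TGCNCNC), CRE (TGACGTCA) or NF-kB.
Serpina3n: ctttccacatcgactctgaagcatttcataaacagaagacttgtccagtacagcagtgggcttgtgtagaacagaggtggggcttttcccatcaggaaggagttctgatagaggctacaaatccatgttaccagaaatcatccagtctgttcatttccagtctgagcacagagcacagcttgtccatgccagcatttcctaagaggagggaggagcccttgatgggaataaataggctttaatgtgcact
Mt1: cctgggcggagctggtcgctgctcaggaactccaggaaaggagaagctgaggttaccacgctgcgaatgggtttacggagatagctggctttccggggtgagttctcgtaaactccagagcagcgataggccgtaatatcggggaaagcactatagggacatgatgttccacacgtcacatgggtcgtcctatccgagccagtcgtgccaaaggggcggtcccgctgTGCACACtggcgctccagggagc
Mt2: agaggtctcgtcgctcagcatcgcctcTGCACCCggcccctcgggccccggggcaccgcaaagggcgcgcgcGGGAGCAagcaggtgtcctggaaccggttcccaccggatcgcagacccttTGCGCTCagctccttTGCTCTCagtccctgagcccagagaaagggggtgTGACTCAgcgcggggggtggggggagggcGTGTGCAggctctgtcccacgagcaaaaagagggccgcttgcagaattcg
The Serpina3n window holds none of the motifs. The Mt1 window holds 1 MRE, 17 bases before the start, and the Mt2 window holds 5 MRE, 217, 172, 122, 107 and 44 bases before the start, and 1 AP-1 match, 73 bases before it, with no overlap between matches. Other annotated transcripts of Mt1 start 122 and 152 bases after the end of its window, and those of Mt2 46 and 242 bases, so a window need not cover the start in use. Of 13386 such windows of tested genes 51.7% hold the short MRE letters, 8.81% NF-kB, 5.96% STAT, 4.97% AP-1 and 2.44% CRE. A match is a run of letters and not a site in use.

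Mt1 was at 312, 284 and 343 CPM in naive tissue and at 870.0, 1587 and 1015 CPM on dpi 2 (Log2FC 1.89 ± 0.60, q = 0.0167), and Mt2 at 134, 120.1 and 178 and 553, 975 and 615 CPM (Log2FC 2.31 ± 0.70, q = 0.0123). Library 2 was the highest in both, and without it Mt1 was not called (Log2FC 1.59, q = 0.0725) and Mt2 stayed just inside the limit (Log2FC 2.02, q = 0.0489). Mt3, the metallothionein of the brain, was at 253, 246 and 264 and 329.9, 469.8 and 395 CPM and was not called (Log2FC 0.65, q = 0.492). Of all 15 metallothioneins and zinc transporters 4 were up, the others being the zinc importers Slc39a1 (from 30.04 to 117 CPM, Log2FC 1.97 ± 0.17) and Slc39a14 (from 33.5 to 68.95 CPM, Log2FC 1.04 ± 0.18), and the median of the list was -0.025 with TMM and 0.20 with library sizes alone. In a list of NRF2, glutathione and phagocyte oxidase genes, 11 of 28 were up (median 0.75), Hmox1 among them. The count is thus not one of NRF2 targets alone, since it includes subunits of the phagocyte NADPH oxidase, which makes superoxide. Cybb rose from 0.515 to 15.2 CPM (Log2FC 4.87 ± 0.60), Cyba from 4.35 to 68.4 CPM (Log2FC 3.98 ± 0.35) and Ncf1 from 7.28 to 68.5 CPM (Log2FC 3.23 ± 0.25). Classical NRF2 targets varied: Srxn1 rose from 130.3 to 293 CPM (Log2FC 1.17 ± 0.10) and Slc7a11 from 19.1 to 51.1 CPM (Log2FC 1.42 ± 0.41), and Nqo1, Gclc and Gclm were not called (Log2FC -0.20, -0.57 and -0.093).

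Of 30 tested AP-1 and other immediate early genes 18 were up and none down (median 1.41). Atf3, a stress-induced member of the ATF family, was at 1.54, 0.838 and 0.951 CPM in naive tissue and at 41.4, 45.3 and 41.4 CPM on dpi 2 (Log2FC 5.26 ± 0.38, q = 1.96e-09). Fosl1 was at 0.0656, 0.0645 and 0.570 and 12.6, 13.1 and 12.001 CPM (Log2FC 5.72 ± 0.93, q = 4.62e-05). Fos rose from 13.8 to 41.96 CPM (Log2FC 1.60 ± 0.23), Junb from 11.1 to 61.3 CPM (Log2FC 2.47 ± 0.22), Jun from 61.5 to 132 CPM (Log2FC 1.11 ± 0.18) and Myc from 3.45 to 19.3 CPM (Log2FC 2.48 ± 0.24). Ccn1, a matrix protein that injury induces, rose from 3.58 to 65.8 CPM (Log2FC 4.20 ± 0.88). Fosb, Egr1, Nr4a1, Arc and Npas4 were not called, with Log2FC of -0.12, 0.78, 0.083, -0.95 and -0.29.

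Axon injury genes were up in 13 and down in 1 of 25 cases (median 1.42). Sprr1a, a small proline-rich protein of injured neurons, was at 0.656, 0.355 and 0.0317 CPM in naive tissue and at 75.5, 63.6 and 95.2 CPM on dpi 2 (Log2FC 7.81 ± 0.71, q = 4.68e-08). Sox11 rose from 6.32 to 16.7 CPM (Log2FC 1.41 ± 0.26), Gal, galanin, from 6.13 to 21.2 CPM (Log2FC 1.79 ± 0.43), and Tubb6, a tubulin, from 2.53 to 89.02 CPM (Log2FC 5.14 ± 0.46). Gap43, the growth cone protein, was at 152, 135 and 141 and 294, 282 and 260.0 CPM, just short of the limit (Log2FC 0.96, q = 0.00240). Sarm1, which executes axon degeneration, fell from 31.3 to 15.3 CPM (Log2FC -1.04 ± 0.23). Arg1, Cd44, Hspb1 and Atf3 of this list are expressed by other cells too.

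Stress programs rose unevenly. Of ATF4 targets 7 of 23 were up (median 0.54), among them Nupr1 (from 2.17 to 45.7 CPM, Log2FC 4.39 ± 0.48), Cebpb (from 5.33 to 44.2 CPM, Log2FC 3.05 ± 0.50) and Atf5 (from 31.4 to 102 CPM, Log2FC 1.70 ± 0.15). Atf4 and Ddit3, CHOP, were under the limit (Log2FC 0.54 and 0.92), and the amino acid enzymes Asns, Psat1 and Phgdh were not called (-0.78, -0.10 and -0.18). Of ER chaperones 7 of 20 were up (median 0.70). Edem1, which sorts misfolded proteins for degradation, rose most (from 22.3 to 92.1 CPM, Log2FC 2.05 ± 0.15), and Calr, calreticulin, rose from 426 to 856 CPM (Log2FC 1.01 ± 0.15). Hspa5, BiP, was at 356 and 566 CPM (Log2FC 0.67, q = 0.0226). Cytosolic heat shock genes had 1 rise and 1 fall among 17, beside 10.0% and 6.33% of all tested genes. Their median was -0.17 with TMM and 0.049 with library sizes alone. The rise was Hspb1, HSP27, from 11.5, 12.7 and 9.95 to 249, 433 and 291 CPM (Log2FC 4.83 ± 0.67, q = 7.86e-06), and the fall Hspa4l (from 322 to 118 CPM, Log2FC -1.45 ± 0.17). Hspa1a was at 4.27 and 5.28 CPM (q = 0.660).

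Of p53 target and death genes 10 of 28 were up and none down (median 0.95). Cdkn1a, p21, which halts the cell cycle, was at 30.3, 23.6 and 27.95 CPM in naive tissue and at 72.4, 109.9 and 64.7 CPM on dpi 2 (Log2FC 1.59 ± 0.30, q = 1.95e-04). Bax rose from 16.9 to 43.4 CPM (Log2FC 1.36 ± 0.16), and Mdm2, Bbc3 and Pmaip1 were not called (Log2FC 0.24, 0.83 and 1.04). Of the necroptosis and pyroptosis genes, Ripk3 had no count in naive tissue and was at 2.63, 2.78 and 3.96 CPM, at least 32.3-fold higher, Mlkl rose from 0.257 to 2.46 CPM (Log2FC 3.24 ± 1.07), and Gsdmd, gasdermin D, from 1.42 to 9.13 CPM (Log2FC 2.68 ± 0.38). Glucocorticoid response genes were up in 5 and down in 1 of 18 cases (median 0.57), and in 3 and 1 without dpi 2 library 2 (median -0.0083). Fkbp5, a cochaperone of the receptor, rose from 25.4 to 67.99 CPM (Log2FC 1.42 ± 0.36), and Klf9 fell from 107 to 51.8 CPM (Log2FC -1.04 ± 0.24). Tsc22d3, Sgk1 and Per1 were not called (Log2FC -0.75, 0.26 and -0.19).

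Neuronal genes fell, and those for ion channels fell most. Of 30 channel and receptor genes 22 were down and none up (median Log2FC -1.40). In every dpi 2 library 29 lay below naive tissue, beside 35.8% of all tested genes. The sum went from 7408 to 8078 to 2267 to 3151 CPM. Scn1a, a sodium channel of axons and interneurons, was at 342, 344 and 397 CPM in naive tissue and at 93.4, 58.2 and 76.4 CPM on dpi 2 (Log2FC -2.25 ± 0.21, q = 7.48e-08). Kcna1 and Kcna2, potassium channels beside the node of Ranvier, fell from 267 to 59.3 CPM (Log2FC -2.17 ± 0.20) and from 624 to 176 CPM (Log2FC -1.82 ± 0.18). Library 2 was the lowest in Scn1a and the groups did not overlap in any of these. Gabrb2, a subunit of the GABA-A receptor, fell most of the list (from 37.2 to 5.51 CPM, Log2FC -2.76 ± 0.48), and the sodium channels Scn2a and Scn8a had Log2FC of -1.40 and -1.61.

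Transmitter genes of the cord were down in 12 of 30 cases and up in none (median -0.86), and in 6 without dpi 2 library 2. Slc17a6, the vesicular glutamate transporter of excitatory neurons, was at 223, 231 and 247 CPM in naive tissue and at 115, 90.3 and 104 CPM on dpi 2 (Log2FC -1.18 ± 0.22, q = 1.80e-04). Slc32a1, the vesicular transporter of inhibitory neurons, was at 243, 273 and 277 and 109, 68.7 and 111 CPM (Log2FC -1.46 ± 0.26, q = 1.08e-04). The groups did not overlap in either gene. Slc6a5, the glycine transporter of inhibitory neurons, fell from 516 to 151 CPM (Log2FC -1.78 ± 0.28), and Gad1 and Gad2, which make GABA, had Log2FC of -1.05 and -1.15. Of motor neuron genes, Chat and Slc5a7, of acetylcholine synthesis, fell from 31.3 to 9.12 CPM (Log2FC -1.78 ± 0.63) and from 117 to 30.2 CPM (Log2FC -1.95 ± 0.35). Glra1, the adult glycine receptor subunit, was at 122, 155 and 168 and 22.5, 8.70 and 17.99 CPM (Log2FC -3.18 ± 0.55, q = 9.11e-05), the largest fall of the list. Neuropeptides of the dorsal horn were not called: Penk, Tac1 and Sst had Log2FC of 0.32, 0.72 and -0.46.

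Pan-neuronal genes were down in 10 of 24 cases and up in none (median -0.94), with 6 down and 1 up under library sizes alone. Their sum was 21399.7 to 22649 CPM in naive tissue and 10109.8 to 12536 CPM on dpi 2. Rbfox3, NeuN, was at 181, 199 and 207 and 90.2, 67.4 and 100.0 CPM (Log2FC -1.19 ± 0.18, q = 1.92e-05), and Nefh, the heavy neurofilament, fell most (from 1134 to 405 CPM, Log2FC -1.48 ± 0.26). Syt1, the calcium sensor of vesicle release, fell from 219.8 to 91.97 CPM (Log2FC -1.26 ± 0.21), and Eno2 was just short of the limit (Log2FC -0.95, q = 6.06e-05). Tubb3, Stmn2 and Uchl1 were not called (Log2FC -0.24, -0.058 and -0.24). For these genes, as for every marker list here, bulk RNA cannot tell fewer cells of a type from less RNA per cell.

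Most OL and myelin genes were not called, like most tested genes. Of 30 tested genes 4 were up and 1 was down, beside 10.0% and 6.33% of all tested genes. The median was -0.27, beside -0.10 for all genes, and 11 had a q under 0.05 with a Log2FC below 0. In every dpi 2 library 14 lay below naive tissue, beside 35.8% of all tested genes. The sums overlapped, at 29359 to 36079 CPM in naive tissue and 30322 to 33677 CPM on dpi 2, but not without Apod, a member that rose: the other 29 genes summed to 28401 to 35219 CPM and 25106 to 27175 CPM. Mbp, myelin basic protein, was at 13171, 11884 and 10872 CPM in naive tissue and at 9232, 10242 and 9843 CPM on dpi 2 (Log2FC -0.29, q = 0.0700). Mag and Mog, on the surface of myelin, had Log2FC of 0.12 and -0.18. None of these 3 was called. The genes that rose were Apod, described above, Klk6, a serine protease of OLs (from 118 to 421 CPM, Log2FC 1.84 ± 0.25), Trf (Log2FC 1.81 ± 0.12) and Cldn11, the claudin of myelin junctions (from 516 to 1197 CPM, Log2FC 1.21 ± 0.17). Enpp2, autotaxin, fell from 670.5 to 313 CPM (Log2FC -1.10 ± 0.14). Of progenitor and newly formed OL genes 3 of 20 were up and none down (median 0.16), again beside 10.0% and 6.33% of all tested genes. Pdgfra, the receptor of progenitors, was at 49.5, 51.2 and 46.3 and 92.4, 93.9 and 93.5 CPM (Log2FC 0.93, q = 0.0370), just short of the limit. Bmp4, made by committed progenitors, rose from 1.85 to 6.66 CPM (Log2FC 1.85 ± 0.54), and Tmem176b, which myeloid cells also express, from 39.9 to 178 CPM (Log2FC 2.15 ± 0.58). Ptprz1 and C1ql1 were not called (Log2FC -0.59 and 0.058).

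Schwann cell genes varied between pools of both groups. Their sum was 213 to 466 CPM in naive tissue and 384 to 799 CPM on dpi 2. Of these genes 2 of 13 were up, beside 10.0% of all tested genes. Ngfr, the p75 receptor, rose from 3.19 to 25.4 CPM (Log2FC 2.99 ± 0.54) and Gldn, gliomedin, from 1.65 to 8.81 CPM (Log2FC 2.41 ± 0.73). Pmp22 and Prx were not called (Log2FC 0.90 and 1.23), and were without naive library 3 (Log2FC 1.05 and 5.59). Ependymal genes, of the cells that line the central canal, had 1 rise among 15 (median -0.30), beside 10.0% of all tested genes. It was Rarres2, chemerin (from 4.74 to 17.9 CPM, Log2FC 1.92 ± 0.44). Foxj1, the ciliary factor, was at 33.6 and 23.4 CPM (Log2FC -0.52, q = 0.0145), and Ccdc153 and Tmem212 had Log2FC of -2.41 and -2.30 and were not called, though Tmem212 was called down without dpi 2 library 2 (q = 0.0487).

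Housekeeping programs differed in direction. Of 44 cytosolic ribosomal protein genes 17 were up and none down (median 0.91). All 44 lay above naive tissue in every dpi 2 library, beside 24.7% of all tested genes. The sum went from 6099 to 6316 to 10862 to 13923 CPM. Rps2 was at 126, 125 and 128 CPM in naive tissue and at 425, 549.7 and 452 CPM on dpi 2 (Log2FC 1.91 ± 0.10, q = 1.34e-11), and Rplp0 at 178, 173 and 172 and 571, 737 and 607 CPM (Log2FC 1.87 ± 0.10, q = 2.43e-11). Rpl3, Rpl4, Rpl5 and Rpl6 were under the limit (Log2FC 0.34, 0.66, 0.73 and 0.71). These genes have many near-identical pseudogenes, and 10 were up without dpi 2 library 2, 30 with library sizes alone and 24 in the fit of the 12 total RNA libraries. Of 42 respiratory chain and ATP synthase genes none was called (median -0.29). In every dpi 2 library 32 lay below naive tissue, beside 35.8% of all tested genes. Their sum was 9239.5 to 9358 CPM in naive tissue and 6889 to 7590.1 CPM on dpi 2. Sdha, of complex II, had Log2FC -0.72 (q = 3.13e-06), Ndufs1, of complex I, -0.79 (q = 1.14e-05), and Ndufa1, Ndufa2, Ndufa4 and Ndufa6 0.018, 0.24, -0.45 and -0.31.

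Cholesterol synthesis genes were not called, in either direction, in any of 25 cases (median -0.21 with TMM and 0.011 with library sizes alone). 14 lay below naive tissue in every dpi 2 library, beside 35.8% of all tested genes. The sums were 2275 to 2363 CPM in naive tissue and 1827 to 1943 CPM on dpi 2. Hmgcs1, Sqle and Fdft1, enzymes of the pathway, had Log2FC of -0.23, -0.19 and -0.15. Genes of lipid efflux and LXR were up in 6 of 20 cases (median 0.83), in 11 with library sizes alone and in 10 in the fit of the 12 total RNA libraries. Plin2, the coat of lipid droplets, was at 16.1, 15.6 and 16.5 and 125, 155 and 102 CPM (Log2FC 2.99 ± 0.38, q = 2.95e-06), while the exporters Abca1 and Abcg1 had Log2FC of 0.83 (q = 0.0170) and -0.50 (q = 0.0166). Hypoxia and glycolysis genes had 4 rises and 1 fall, Vegfa, among 29, beside 10.0% and 6.33% of all tested genes. Their median was -0.17 with TMM and 0.048 with library sizes alone. Hk2 and Hk3, hexokinases, rose from 4.52 to 18.7 CPM (Log2FC 2.05 ± 0.34) and from 1.33 to 21.7 CPM (Log2FC 4.02 ± 0.50), Slc16a3, a lactate exporter, rose from 2.73 to 26.4 CPM (Log2FC 3.27 ± 0.45), and Car9, a carbonic anhydrase, went from no count to 0.756, 2.81 and 0.212 CPM, at least 13.02-fold higher, or 5.00-fold without dpi 2 library 2. Hif1a was not called (Log2FC 0.25, q = 0.273), nor were Slc2a1 and Slc2a3, the glucose transporters (0.29 and -0.77).

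Calcium-binding S100 proteins and annexins were up in 12 of 16 cases (median 2.90). S100a6, calcyclin, was at 17.5, 12.9 and 12.4 CPM in naive tissue and at 364, 496 and 333 CPM on dpi 2 (Log2FC 4.80 ± 0.36, q = 2.84e-09). Anxa1, which mediates the end of inflammation, was at 0.230, 0.258 and 0.158 and 24.4, 28.7 and 12.03 CPM (Log2FC 6.63 ± 0.54, q = 1.01e-08). S100a4 and S100a11 rose from 0.195 to 11.9 CPM (Log2FC 5.91 ± 0.73) and from 0.906 to 48.6 CPM (Log2FC 5.74 ± 0.62). S100b, which astrocytes and OLs express, was the member with a negative value, at 977, 836 and 798 and 543, 638 and 601 CPM (Log2FC -0.55, q = 1.81e-04), and was not called. S100a1 and S100a3 were not called either (Log2FC 0.52 and 0.98).

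**Figure D3:**
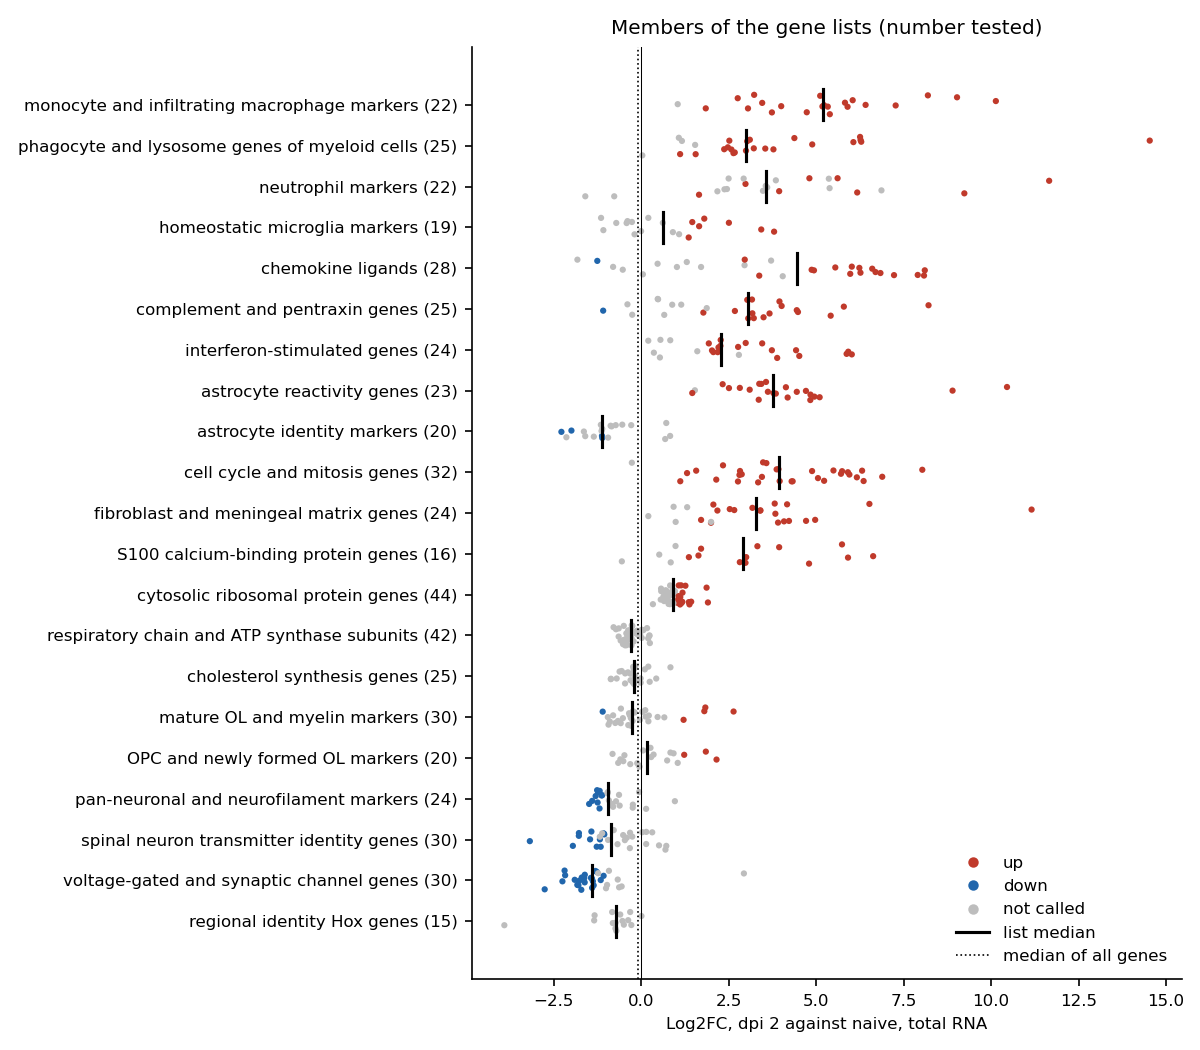
Log2FC of dpi 2 against naive total RNA (horizontal axis) for each tested member of 21 gene lists (rows, with the number tested), with members called up in red, down in blue and not called in grey. The solid bar is the median of the list, and the dotted line the median of all 17167 tested genes, -0.10. Monocyte, phagocyte, cell cycle and astrocyte reactivity genes lie to the right, neuronal channel genes to the left, and respiratory chain, cholesterol and most myelin genes close to the dotted line.

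Compared directly with the later total RNA, dpi 2 differed in far fewer genes than from naive tissue. Of 17167 tested genes 166 were higher on dpi 2 than on dpi 10 (0.967%) and 184 lower (1.07%), and 297 were higher than on dpi 42 (1.73%) and 150 lower (0.874%), by the same test and limits. The dpi 2 libraries are shared by these comparisons, and the comparisons contain no naive library. Of the 8 rising genes with the smallest p, Hmox1 was at 53.01, 66.9 and 46.9 CPM on dpi 10 and at 39.7, 32.7 and 36.4 CPM on dpi 42, so that dpi 2 was higher by Log2FC 3.31 ± 0.26, q = 8.13e-08 and 3.92 ± 0.26, q = 1.43e-08. Serpina3n was at 660.1, 674 and 588 and 628, 416 and 576 CPM (dpi 2 against dpi 10 1.59 ± 0.19, q = 1.65e-05, against dpi 42 1.84 ± 0.19, q = 2.78e-06). Both genes were thus highest on dpi 2. Lyz2 went the other way, with 2631, 2861 and 1996 and 1377, 1020.3 and 1695 CPM on the later days (dpi 2 against dpi 10 -2.12 ± 0.23, q = 5.70e-06, against dpi 42 -1.25 ± 0.23, q = 0.00103). Arpc1b was higher on dpi 2 than on dpi 42 (1.19 ± 0.15, q = 3.21e-05) and not called against dpi 10 (0.48 ± 0.15, q = 0.0564). Ctsz, Grn, Cd9 and Pfn1 were called against neither day, with values of -0.58, -0.72, 0.063 and 0.60 against dpi 10 and -0.41, 0.021, 0.19 and 0.86 against dpi 42. Of the 8 falling genes Clmn was lower on dpi 2 than on both later days (-1.62 ± 0.14, q = 2.11e-07 and -1.51 ± 0.14, q = 6.45e-07), and its level on those days, 74.7, 65.1 and 64.1 and 64.7, 59.2 and 64.9 CPM, was near that of naive tissue. The other 7 were called against neither day, the values running from -0.54 for Gprc5b to -0.23 for Tom1l2, -0.51 for Ppm1l, -0.21 for Dzank1, -0.52 for Sorl1, -0.45 for Epm2aip1 and -0.44 for Celsr2 against dpi 10.

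**Figure D4:**
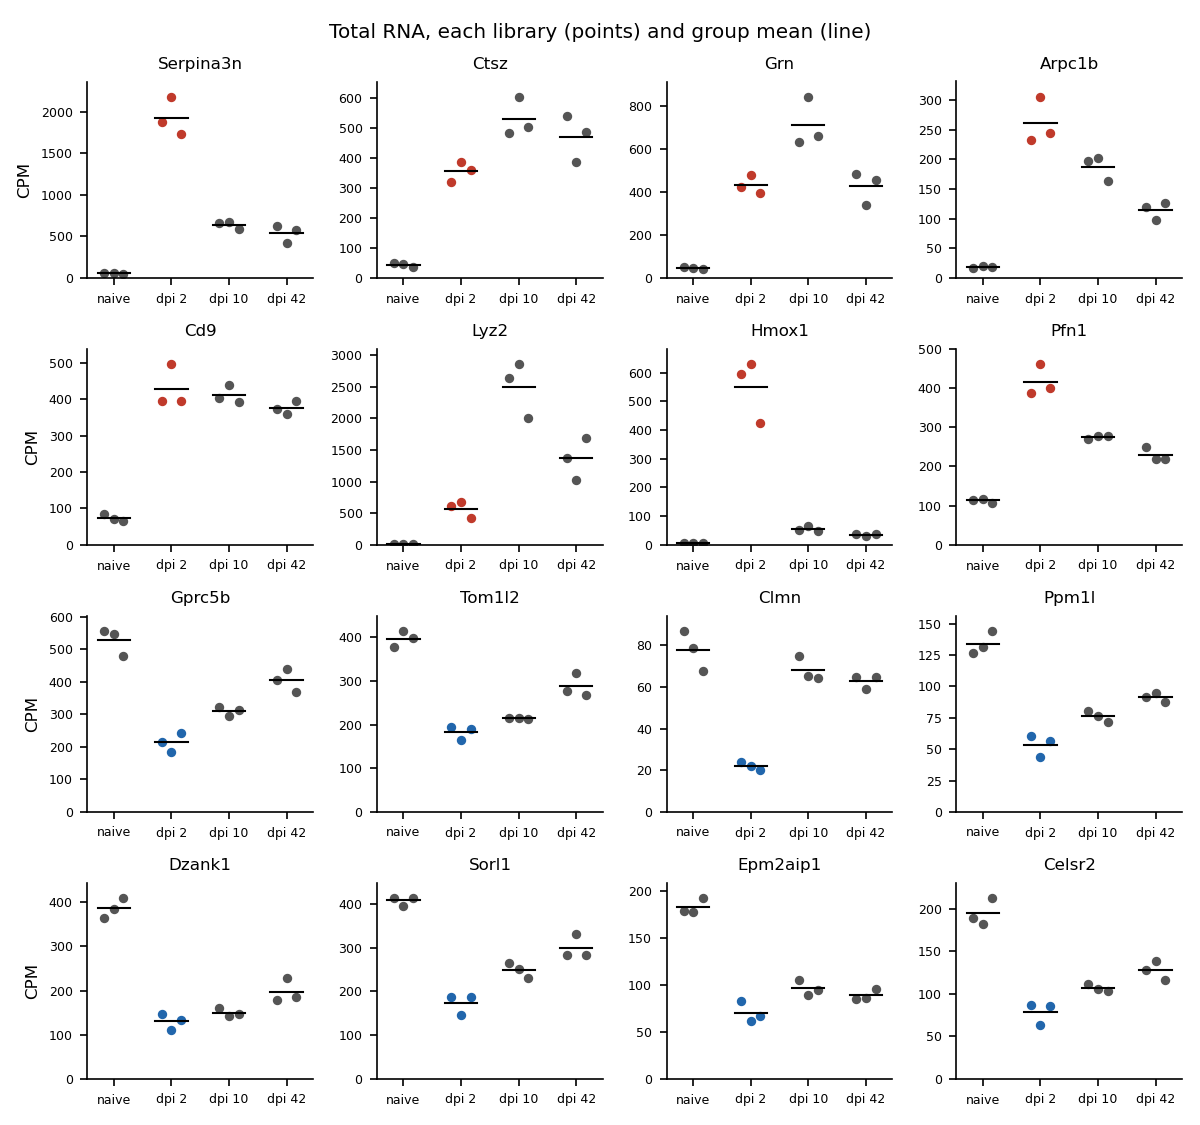
CPM (vertical axes, from 0) of the 8 genes with the smallest p in each direction, in each of the 12 total RNA libraries (points), with dpi 2 in colour and the group mean as a line. Hmox1 and Serpina3n have their highest libraries on dpi 2 and Lyz2 on dpi 10. Clmn is low in the 3 dpi 2 libraries only, at 20.3 to 23.9 CPM, while the other falling genes stay below naive tissue on dpi 10 and dpi 42.

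By list, the genes highest on dpi 2 were those of cell division. Of 32 cell cycle genes 21 were higher on dpi 2 than on dpi 10 and 28 higher than on dpi 42, and none was lower. Mki67 was at 11.005, 14.96 and 13.99 CPM on dpi 10 and at 5.84, 2.88 and 8.71 CPM on dpi 42. Axon injury genes were higher in 5 and 10 of 25 cases and lower in none, among them Tubb6 (1.77 against dpi 10). Sprr1a did not pass against dpi 10, at 82.02, 114 and 78.98 CPM on that day (-0.23 ± 0.49, q = 0.874), and was at 12.96, 8.27 and 9.34 CPM on dpi 42 (2.94 ± 0.53, q = 0.00101). Astrocyte reactivity genes were higher in 5 and 7 of 23 cases, among them Timp1 (2.16 against dpi 10 and 2.73 against dpi 42) and Hspb1 (2.34 and 2.12). Cholesterol synthesis genes, none of which was called against naive tissue, were higher on dpi 2 than on dpi 10 in 5 and than on dpi 42 in 6 of 25 cases, with medians of 0.70 and 0.73.

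Lists of phagocytes and matrix went the other way. Of 25 phagocyte genes 9 were lower on dpi 2 than on dpi 10 and 2, Spp1 and Msr1, were higher, and against dpi 42 7 were lower and 3 higher. Apoe was at 17074, 19652 and 15739.7 CPM on dpi 10 and at 17932, 12853 and 18508 CPM on dpi 42 (dpi 2 against dpi 10 -3.23 ± 0.47, q = 1.44e-04), so that its level on dpi 2, close to that of naive tissue, was below that of both later days. Gpnmb was at 1536, 2071 and 1292 and 983, 621 and 1149 CPM. Fibroblast and matrix genes were lower in 8 and 1 of 24 cases, MHC genes in 6 and 3 of 22, and complement genes in 4 and 2 of 25, C3 being at 338, 335 and 308 CPM on dpi 10 and at 603, 374 and 702 CPM on dpi 42. Genes of lipid efflux and LXR were lower than on dpi 10 in 5 of 20 cases. Among monocyte genes, Chil3 and Arg1 were higher on dpi 2 than on dpi 10 (3.92 and 4.88): Arg1 was at 3.29, 5.68 and 2.67 and 0.343, 0 and 0.199 CPM on the later days. Ms4a7, a marker of settled macrophages, was lower than on dpi 10 (-3.25 ± 0.45, q = 1.44e-04).

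The counts of calls changed with the library left out. Without dpi 2 library 2, the one with Y-linked counts, 1428 genes were up and 762 down. Without the whole pool, its OL library included, they were 1486 and 836. Without naive library 1, 2 or 3 they were 1478, 1452 and 1476 up and 1014, 973 and 954 down. Without dpi 2 library 1 or 3 they were 1633 and 1698 up and 1159 and 1108 down. The count up without dpi 2 library 2 was thus near those without a naive library, while the count down was lower. The 16 genes with the smallest p were called without dpi 2 library 2 too. Among the genes named above, those that then missed the q limit alone were Aldoc, Bcan, Chat, Cx3cl1, Gldn, Hbb-bt, Lif, Mt1, Ntsr2, Pdgfrb, Pecam1, Slc1a3, Slc6a11 and Slc7a11, with q from 0.0671 for Pecam1 to 0.126 for Chat. Log2FC fell short of 1 in size for Calr (0.99), Eef1a1 (0.98), Fkbp5 (0.98), Gad1 (-0.85), Gad2 (-0.95), Nfkbia (0.82), Nptx1 (-0.97), Sarm1 (-0.92), Slc39a14 (0.88) and Snap25 (-0.98). Their direction stayed as it was. Fewer genes were then called in 33 of the 49 lists and more in 4, a count made for this library alone. In addition to the lists with a count given above, the number down went from 22 to 18 for channel genes, and the number up from 11 to 9 for endothelial activation, from 22 to 20 for astrocyte reactivity, from 11 to 9 for NRF2, from 15 to 13 for protease and from 7 to 5 for ATF4 genes.

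Many of these calls rested on other libraries as well. Aldoc, Gad1, Lif and Ntsr2 lost their call with any 1 of the 6 libraries left out (q from 0.0543 to 0.180), and Chat and Pecam1 with any of 5. Pdgfrb, Slc1a3, Slc6a11 and Calr lost theirs with any of 4, and Gldn, Hbb-bt, Mt1 and Nfkbia with any of 3. Cx3cl1, Eef1a1, Fkbp5, Gad2, Nptx1, Slc7a11 and Snap25 lost theirs without dpi 2 library 2 alone. Other libraries decided a few more calls. Without naive library 1, Bmp4 (q = 0.0509), S100a8 (q = 0.0691) and Ly6c2 (q = 0.0828) missed the q limit and Enpp2 had a Log2FC of -0.997. Without naive library 3, S100a8 (q = 0.0743) and Ly6c2 (q = 0.0772) missed it and Klf9 had a Log2FC of -0.93, and without dpi 2 library 1 Ly6c2 (q = 0.0554) missed it. Mlkl was not called without naive library 1 (q = 0.0590) or 2 (q = 0.0902) or dpi 2 library 3 (q = 0.0512), and Mt2 not without naive library 2 (q = 0.0503). Arc was called down without dpi 2 library 1 (Log2FC -1.07) or naive library 3 (Log2FC -1.05).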

How the data were processed

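Total RNA and HA-captured OL ribosomal RNA of 3 pools of 2 mice at each of 4 states (naive, dpi 2, dpi 10 and dpi 42) gave 24 polyA libraries. The authors aligned the reads to mm10 (GRCm38.p6 in their notes) with STAR, after FastQC 0.10.1, counted reads per gene with HTSeq 0.10.0 and deposited raw counts of 21965 Ensembl genes. The strand setting of the counting is not given in the sources used here, and reads of genes that overlap or have near-identical copies may have been left out or shared.

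Counts were fitted in R 4.3.3 with edgeR 4.0.16 (glmQLFit and glmQLFTest), with TMM scaling, 1 mean for each of 8 groups, no block and only those genes whose counts in the 24 libraries added up to 10 or more. A gene was called at a Log2FC past 1 in size and a Benjamini-Hochberg q under 0.05 over all 17167 tested genes. The other time points and the OL libraries thus share in the estimate of the spread. The total and the OL library of a pool were treated as independent. CPM are counts per TMM-scaled library total. The script was tested on simulated counts. Groups followed the descriptions in the labels. The labels do not name the mice of a pool, and p-values rest on the spread between pools, of which each group has 3. An exact permutation test of 3 against 3 could not go below 0.1. Counting error alone sets the floor of 3 counts.

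The members and the gene lists were chosen with earlier results of these data known, and lists are described by counts and medians with no test. Genes named were the 8 in each direction with the smallest p and the 6 with the largest change of mean CPM, among called genes with all dpi 2 libraries on 1 side of all naive libraries, and, for each of 50 lists, the first 4 members, the called members with the largest rise and fall, and other members in list order. Promoters are the RefSeq windows supplied for GRCm38.p6. Alternatives were DESeq2 1.42.0 (test and size factors), library sizes alone, other filters, fits of 6, 12 and 18 libraries, each library left out in turn, and a replicate block. Fits without the pair of dpi 42 libraries with conflicting labels, without both libraries of dpi 2 pool 2 and, unblocked, of 18 libraries were also made, and for dpi 2 against the later days these were added after seeing the data. Some genes that this rule names are not reported here.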

Additional observations from a re-analysis of the deposited data

Results flagged for a closer look

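Of the 16 genes with the smallest p, 5 differed by more than 1 on the log2 scale, with q under 0.05, between dpi 2 and a later day. The difference was tested as dpi 2 against that day in edgeR's quasi-likelihood fit. Serpina3n was higher on dpi 2 than on dpi 10 and than on dpi 42, with differences on the log2 scale of 1.59 ± 0.19, q = 1.65e-05, and 1.84 ± 0.19, q = 2.78e-06. Hmox1 was also higher than on both days (3.31 ± 0.26, q = 8.13e-08, and 3.92 ± 0.26, q = 1.43e-08), and Arpc1b was higher than on dpi 42 (1.19 ± 0.15, q = 3.21e-05). Lyz2 went the other way: dpi 2 minus dpi 10 was -2.12 ± 0.23, q = 5.70e-06, and dpi 2 minus dpi 42 was -1.25 ± 0.23, q = 0.00103. Clmn was lower on dpi 2 than on either later day, with differences of -1.62 ± 0.14, q = 2.11e-07, and -1.51 ± 0.14, q = 6.45e-07. In each of these comparisons all 3 dpi 2 libraries lay on the same side of the 3 libraries of the later day.

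Total RNA library 2 of dpi 2 held 2604 counts on Y-linked genes, which no result of the report rests on, against 0, 0 and 13 in the naive total RNA libraries. All 4 Y-linked genes were among those tested and none was called, while all 4 were called in the fits of 12 and of 6 libraries.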

How the results depend on the processing

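With 3 pools a group, the call of a gene that varies between pools or lies near 3 counts a library is the least certain. None of the 225 called genes named above changed sign against naive tissue in any of the 18 alternatives. Of these genes 201 to 219 were called with each naive or dpi 2 total RNA library left out, 222 of the 223 with an adjusted p by the DESeq2 Wald test, 223 with DESeq2 size factors, 213 in the fit of 12 total RNA libraries and 216 in that of the 6 compared, and all 225 with filterByExpr or every gene with a count. With library sizes alone 204 were, and those lost were mostly falling neuronal and astrocyte genes such as Slc17a6, Gad2, Nefl, Nefm, Rbfox3, Snap25, Chat, Slc1a3 and Aldoc. Under that scaling 2120 genes were up and 546 down, the median of all genes being higher by 0.20, and list counts of genes down went from 10 to 6 for pan-neuronal, from 12 to 5 for transmitter and from 4 to 0 for astrocyte identity genes. The median was higher by 0.15 in the fit of 12 libraries (2527 up and 1064 down, 70.4% up) and by 0.11 in that of 6 (2352 and 1215). In the fit of 12 more than 1.5 times as many genes were up among neutrophil (16 against 8), progenitor (6 against 3), Schwann cell (5 against 2), chemokine receptor (10 against 6), p53 (17 against 10) and proteoglycan genes (11 against 7). The same held for lipid efflux (10 against 6), ependymal (2 against 1) and cytosolic heat shock genes (2 against 1). Lists with 0 genes up in the main fit then had 2 (lymphocyte) or 1 (mast cell, cholesterol synthesis, pan-neuronal and channel genes). DESeq2 called 1897 and 1089, and the other settings gave similar counts. With single libraries left out 1428 to 1698 genes were up and 762 to 1159 down.

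Comparisons with the later days depended on the libraries fitted. Against dpi 10, 397 genes were higher and 503 lower in the fit of 12 libraries and 441 and 474 in that of 6. Against dpi 42 they were 652 and 429, and 606 and 317. Both are above the 166 and 184, and 297 and 150, of the 24 libraries, and the cause was not tested. With single libraries left out, 110 to 155 were higher and 128 to 173 lower than on dpi 10, the 110 without dpi 10 library 1. Against dpi 42 they were 186 to 275 and 89 to 138, the 186 and 89 without dpi 2 library 2, and 96 were lower without dpi 42 library 1. Without the pair of dpi 42 libraries whose labels conflict they were 234 and 137.

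The replicate numbers do not pair the samples: deviations from the group means of naive and dpi 2 pools of the same number correlated at 0.017, -0.045 and -0.0045, and not every pool correlated best with its own number. With the replicate number as a block in 18 libraries without dpi 42, 1719 genes were up and 1167 down, against 1765 and 1138 without the block, and in the 6 libraries 2206 and 1216. A block could not be used for dpi 42, whose labels conflict. Shares of promoter motifs in called against other genes were not compared, since windows were at hand for 77.4% of the genes up and 76.4% of those down, under the 80% set as the minimum. In the last 150 bases before the start 37.8% of windows held MRE, 5.69% NF-kB, 3.43% STAT, 3.06% AP-1 and 2.21% CRE.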
